A study of Mus musculus with 10 samples.

Results

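The genes of oxidative phosphorylation, the process by which mitochondria make ATP, were followed through its 5 enzyme complexes in kidney glomeruli. They were the rows of the deposited expression table whose mouse symbol starts with Nduf, Sdha to Sdhd, Uqcr, Cox4 to Cox8 or Atp5. The symbols matched 99 of 22053 rows, and Ndufb1-ps was left out, so that 98 genes remained. Ndufb1-ps is annotated as a non-coding transcript in GENCODE M21 but may stand for the complex I subunit Ndufb1, and had 8.16 to 14.4 FPKM in wild type and 8.04 to 10.7 FPKM in G799R. By symbol 45 belonged to complex I, 8 to complex II, 8 to complex III, 19 to complex IV and 18 to complex V. Ndufa4, a known subunit of complex IV in spite of its symbol, was counted there. Of the 98 genes 83 encode subunits, 14 encode assembly factors, which help to build a complex, and Ndufa4l2 is a paralogue of Ndufa4. Filtering at a mean of 0.5 FPKM (fragments per kilobase of transcript, scaled to the library total) left 93 genes for testing. The 5 that did not pass were Cox8b, Cox8c and a second Atp5o identifier, all listed at 0 in every library, and Cox6a2 and Cox7b2, at most 0.630 and 0.677 FPKM.

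The libraries were RNA-seq of mouse kidney glomeruli, 5 from wild type for Col4a3 and 5 from mice with the Col4a3 variant p.G799R, a glycine to arginine change in a chain of basement membrane collagen. Sample titles name no treatment for either group, although the series title names tauroursodeoxycholic acid, and the deposited table holds no columns of other samples. Nothing in the sources used here gives the zygosity, strain, sex or age of the mice, or how glomeruli were collected. Nor is it stated that each library is a mouse of its own, and the p-values therefore speak of the spread over these 10 libraries, part of which may be technical. FPKM sums ran from 320720 to 340875 per library, absolute depth is unknown, and estimated depths lay between 0.860 and 1.19 times that of wild-type library 1.

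Complexes I, III and IV pass electrons from NADH to oxygen and pump protons across the inner mitochondrial membrane. Complex II, which is also the succinate dehydrogenase of the citric acid cycle, feeds in electrons without pumping, and complex V, the ATP synthase, lets the protons flow back to make ATP. Most subunits are encoded in the nucleus and imported, while a small set at the core of complexes I, III, IV and V is encoded in mitochondrial DNA. In the kidney the proximal tubule and the thick ascending limb are known for many mitochondria, which power ion reabsorption, whereas podocytes and other glomerular cells hold fewer.

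The start regions of the genes were searched for motifs of factors known to drive nuclear genes of oxidative phosphorylation. RefSeq promoters (build GRCm38.p6), 250 bases before to 50 after a start, were matched for 78 of the 98 genes, which gave 83 windows. The 3 genes of subunit c, which forms the rotating ring of the ATP synthase, are shown because they encode the same mature protein and fell by different amounts. Ndufaf4 and Sdhaf2 are shown as an assembly factor that fell and one that was higher. Only bases before the start that lie in no annotated exon are printed, 5′ to 3′ on the gene's strand, with motif matches in capitals.
Atp5g1 (minus strand, chr11:96075671-96075881): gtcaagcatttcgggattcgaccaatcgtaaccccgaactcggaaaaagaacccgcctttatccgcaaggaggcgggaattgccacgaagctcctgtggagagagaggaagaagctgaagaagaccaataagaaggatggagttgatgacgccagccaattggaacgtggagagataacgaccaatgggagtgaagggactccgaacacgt
Atp5g2 (minus strand, chr15:102671128-102671297): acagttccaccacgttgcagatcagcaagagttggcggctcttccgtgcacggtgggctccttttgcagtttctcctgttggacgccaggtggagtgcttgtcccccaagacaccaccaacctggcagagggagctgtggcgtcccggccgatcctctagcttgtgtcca
Atp5g3 (minus strand, chr2:73911327-73911576): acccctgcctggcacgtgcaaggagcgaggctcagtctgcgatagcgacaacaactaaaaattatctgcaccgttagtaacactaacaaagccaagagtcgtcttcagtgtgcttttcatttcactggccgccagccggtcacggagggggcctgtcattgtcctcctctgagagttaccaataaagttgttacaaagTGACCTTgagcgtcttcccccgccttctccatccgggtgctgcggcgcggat
Ndufaf4 (plus strand, chr4:24897833-24898082): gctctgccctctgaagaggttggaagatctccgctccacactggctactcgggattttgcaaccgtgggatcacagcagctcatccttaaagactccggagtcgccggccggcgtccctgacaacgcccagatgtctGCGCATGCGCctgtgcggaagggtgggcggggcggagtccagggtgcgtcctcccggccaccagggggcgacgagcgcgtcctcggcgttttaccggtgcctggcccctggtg
Sdhaf2 (minus strand, chr19:10525328-10525403): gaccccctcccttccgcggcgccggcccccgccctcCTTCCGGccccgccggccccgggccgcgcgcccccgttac
Both strands were searched for GCATGCGC (nuclear respiratory factor 1), CCGGAAG (the ETS family, which includes GABPA), AAGGTCA (the estrogen-related receptor) and AAGATGGCG (YY1). The capitals in Ndufaf4 are a match on each strand in overlapping bases, those in Atp5g3 a receptor match on the opposite strand, and those in Sdhaf2 an ETS match on the opposite strand. Matches outside the printed bases are not shown. The full window of Atp5g2 holds 2 of GCATGCGC, that of Ndufaf4 holds 3, and that of Sdhaf2 holds 2 of CCGGAAG. Over full windows, GCATGCGC was found in 14.5% of member windows and in 2.71% of all 32851 mouse windows, CCGGAAG in 25.3% and 8.86%, AAGGTCA in 9.64% and 4.72%, and AAGATGGCG in 9.64% and 1.40%. Median GC content was 58.3% in member windows and 52.7% in all. The expression difference hardly varied with a match: its median, on the log2(FPKM + 1) scale used below, was −0.66 with and −0.69 without GCATGCGC, −0.69 and −0.68 for CCGGAAG, −0.75 and −0.68 for AAGGTCA, and −0.62 and −0.73 for AAGATGGCG.

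Expression of oxidative phosphorylation genes was lower in G799R glomeruli in all 5 complexes. Differences are G799R minus wild type on log2(FPKM + 1), tested by limma over all 13117 genes that passed the filter with a Benjamini-Hochberg threshold of 0.05, and a gene that passed is called lower or higher. Of the 93 genes tested 78 were called lower, 4 higher and 11 not called. Over all tested genes 19.3% were called lower and 40.5% higher. The median difference was −0.71 for the 93 genes and 0.17 for all genes, and the median level in G799R was 58.9% of wild type. In 69 of the 93 genes every G799R library lay below every wild-type library, a pattern found in 15.7% of all tested genes, while the opposite pattern was found in 26.1% of all tested genes and in 0 of the 93. With libraries scaled by median of ratios, which set the median of all genes to 0.02, 83 genes were lower and 1 higher, against 25.5% and 23.3% of all tested genes.

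Markers of tubule cells moved with these genes. The score of 32 proximal and distal tubule markers, their mean log2(FPKM + 1), was 6.21 to 6.92 in wild-type and 3.59 to 4.62 in G799R libraries. All 16 proximal tubule markers and 15 of 16 distal markers were lower, with summed levels of 3339 to 5942 and 1670 to 2532 FPKM in wild type and 347 to 705 and 222 to 655 FPKM in G799R. All 14 podocyte markers were higher (sums 3089.9 to 3700 and 5210 to 6911 FPKM), as were 10 of 12 endothelial and 7 of 12 mesangial markers, so defining glomerular markers were present in every library. No marker of these lists was at 0 throughout. The tubule score separated the groups without overlap, so tubule content and genotype cannot be told apart in this design. In bulk RNA, fewer cells of a type and less RNA per cell cannot be told apart either.

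**Figure D1:**
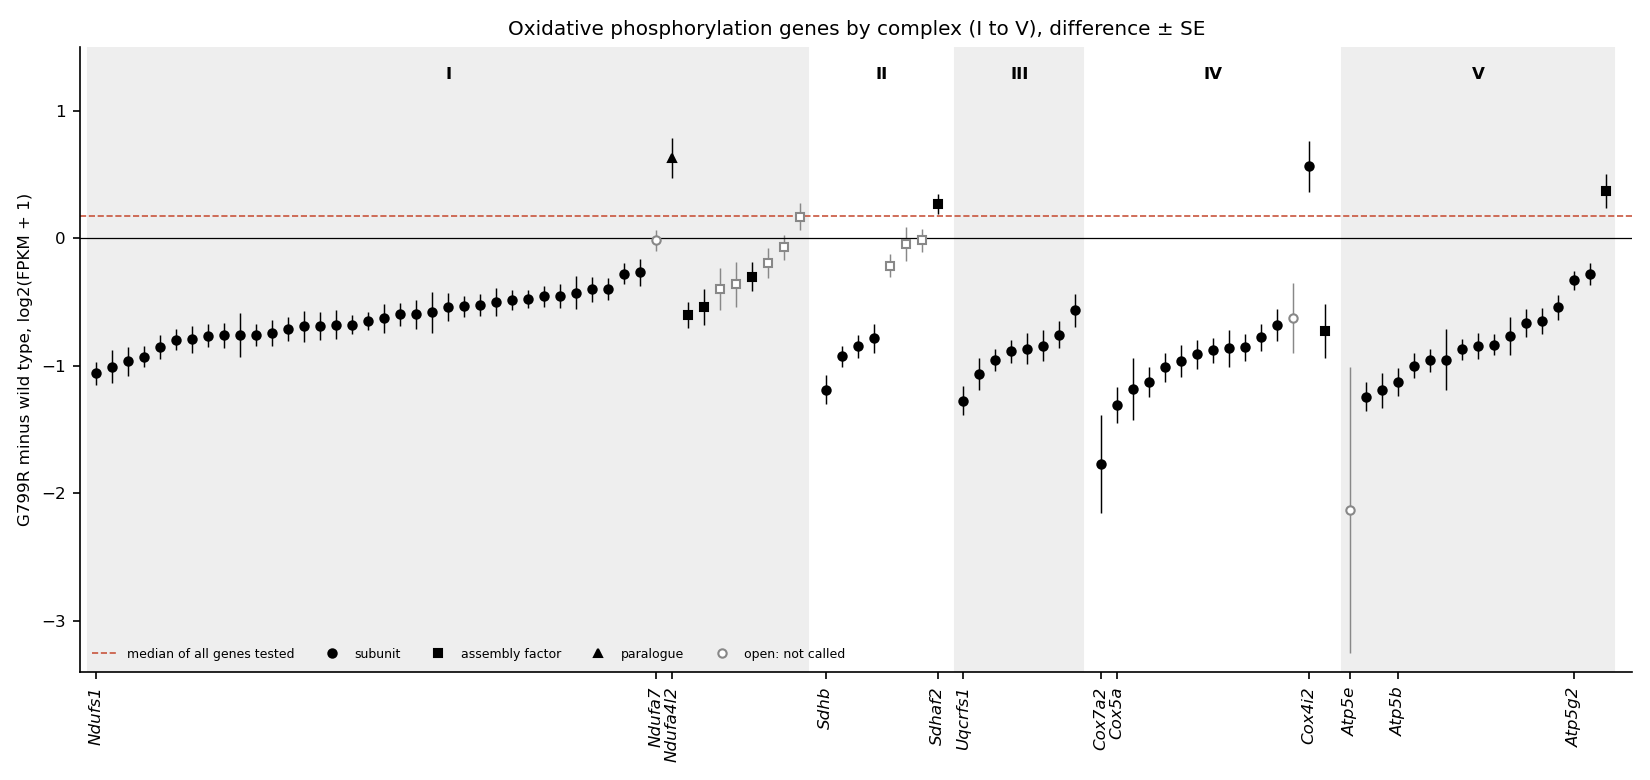
Difference between G799R and wild type on log2(FPKM + 1), with its SE, for the 93 tested genes by complex and, within a complex, by subunit, paralogue and assembly factor, with 12 genes labelled by name. Filled symbols were called by limma, and the dashed line is the median of all tested genes, 0.17; 78 genes were lower and 4 higher.

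Complex I, the NADH dehydrogenase, was lower by a moderate amount. Of its 36 tested subunits 35 were called lower, with a median of −0.64, among them all 7 core subunits, which carry the flavin and iron-sulfur centres (median −0.71), and 28 of 29 accessory subunits (median −0.59). Ndufs1, the large iron-sulfur subunit and the member of complex I that fell most, stood at 60.0, 77.3, 70.1, 85.4 and 80.2 FPKM in wild-type libraries 1 to 5 and at 32.7, 36.4, 35.0, 33.9 and 37.5 FPKM in G799R. The groups lay far apart, and wild-type library 1 was the lowest of its group. Its mean fell 2.12-fold, from 74.6 ± 9.86 to 35.1 ± 1.93 FPKM (SD, n = 5 each), a log2 difference of −1.06 ± 0.09 (SE; limma adjusted p = 4.7e-06). Ndufv1, which binds NADH and its flavin, was at 70.4, 86.7, 75.7, 90.9 and 84.5 FPKM in wild type and at 48.9, 52.1, 47.7, 54.9 and 49.1 FPKM in G799R. Its partner Ndufv2 was at 67.0, 79.3, 82.4, 95.4 and 89.4 against 52.1, 43.3, 49.8, 47.7 and 47.5 FPKM. Groups did not overlap in either gene, and the log2 differences of Ndufv1 and Ndufv2 were −0.68 and −0.76 (limma adjusted p = 3.2e-05 and 4.6e-05). Falls of similar size to Ndufs1 were seen in Ndufb9, of the membrane arm (−1.01), and Ndufab1, the mitochondrial acyl carrier protein (−0.97), both named after their values were seen.

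Subunit Ndufa7 stood apart from the other subunits of complex I. This accessory subunit was at 43.4, 41.8, 46.1, 46.1 and 46.4 FPKM in wild type and at 40.7, 41.1, 40.0, 50.6 and 49.8 FPKM in G799R. The groups overlapped, with G799R libraries 4 and 5 above and libraries 1 to 3 below all of wild type. Its log2 difference of −0.02 ± 0.08 (SE) was not called by limma (adjusted p = 0.87). Ndufb7 and Ndufs5, named after their values were seen, also fell little, by 0.27 and 0.28 on the log2 scale, and the call of Ndufb7 was lost in 8 of 10 fits that left out 1 library.

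In complex II the 4 subunits were all lower, with a median of −0.89. None of its 4 assembly factors was called lower (median −0.03). Over all tested genes 19.3% were called lower, with a median of 0.17, so 0 of 4 says little about these factors. Their levels were also lower, with a median of 5.86 FPKM against 76.6 FPKM for the subunits. Sdhb, the iron-sulfur subunit and the one that fell most, was at 81.7, 109, 97.5, 135 and 112 FPKM in wild type and at 45.8, 46.4, 42.4, 44.3 and 50.7 FPKM in G799R. G799R values lay close together and below every wild-type value. The mean fell 2.33-fold, from 107 ± 19.7 to 45.9 ± 3.08 FPKM (SD, n = 5 each), a log2 difference of −1.19 ± 0.11 (SE; limma adjusted p = 1.0e-05). Sdha, which binds the flavin and oxidises succinate, was at 116, 127, 128, 155 and 146 FPKM against 70.3, 73.3, 73.1, 63.3 and 69.6 FPKM. Sdhd, a membrane anchor, was at 84.4, 97.4, 92.8, 119 and 102 FPKM against 57.5, 54.3, 53.7, 56.4 and 49.8 FPKM. Again neither gene's groups overlapped, and their log2 differences were −0.93 and −0.85 (limma adjusted p = 6.5e-06 and 1.4e-05). The assembly factors Sdhaf1, Sdhaf3 and Sdhaf4, which help insert iron-sulfur clusters or guard the flavin subunit, had log2 differences of −0.21, −0.02 and −0.04 with overlapping groups. Exons of Sdhaf1 overlap those of E130208F15Rik on the other strand, a gene with a row of its own, so its value is uncertain.

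Complex III, the cytochrome bc1 complex, was lower in every one of its 8 subunits, with a median of −0.88. Uqcrfs1, the Rieske iron-sulfur protein, fell most, from 91.6, 115, 114, 150 and 130 FPKM in wild type to 47.8, 53.9, 45.7, 47.2 and 48.3 FPKM in G799R. The lowest wild-type value, again in library 1, was well above the highest G799R value. Its mean fell 2.47-fold, from 120 ± 21.4 to 48.6 ± 3.11 FPKM (SD, n = 5 each; log2 difference −1.27 ± 0.11 SE, limma adjusted p = 5.6e-06). The core proteins Uqcrc1 and Uqcrc2 form the matrix side of the complex. Uqcrc1 was at 103, 131, 117, 145 and 132 FPKM against 69.0, 70.6, 68.4, 61.7 and 65.5 FPKM. Uqcrc2 was at 99.5, 125, 115, 143 and 121 FPKM against 63.6, 62.4, 58.2, 60.0 and 63.2 FPKM. Neither gene's groups overlapped, and the log2 differences were −0.89 and −0.95 (limma adjusted p = 1.3e-05 and 6.5e-06). The smallest fall was that of Uqcrb (−0.56), which binds near the ubiquinone site, has 3 pseudogene copies, and was the only gene of the complex whose groups overlapped.

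In complex IV, cytochrome c oxidase, 13 of 15 tested genes were lower, with a median of −0.88. Cox4i1 and Cox5a, which join the complex early in its assembly, and Cox5b are nuclear subunits around the mitochondrially encoded core. Cox5a was at 82.7, 118, 118, 143 and 154 FPKM in wild type and at 44.5, 51.0, 48.0, 49.6 and 48.0 FPKM in G799R. Cox4i1 was at 227, 298, 296, 319 and 325 FPKM against 159, 160, 148, 153 and 169 FPKM. Cox5b was at 84.6, 111, 113, 124 and 136 FPKM against 54.3, 63.2, 55.8, 57.9 and 66.2 FPKM. In all 3 the groups were apart and wild-type library 1 was the lowest of wild type. Their log2 differences were −1.31, −0.88 and −0.91 (limma adjusted p = 2.0e-05, 2.5e-05 and 6.3e-05), and Cox5a fell 2.56-fold. On the log2(FPKM + 1) scale the largest fall belonged to Cox7a2, the common isoform of a small subunit, at 12.7, 53.3, 58.3, 21.4 and 62.3 FPKM in wild type and 8.81, 11.5, 7.33, 11.4 and 9.66 FPKM in G799R. Wild-type libraries 1 and 4 were nearer to the G799R range, which they did not enter, and the other 3 were far above it. The log2 difference was −1.77 ± 0.39 (SE; limma adjusted p = 0.0024) and stayed between −2.12 and −1.57 when any 1 library was left out. Cox7a2l, its relative that acts in supercomplex assembly, had the same 2 wild-type libraries low, at 32.4 and 33.4 FPKM against 60.7 to 64.3 FPKM in the other 3, and 23.5 to 34.3 FPKM in G799R, so that its groups overlapped (log2 difference −0.73, limma adjusted p = 0.013). Whether these separate wild-type levels come from the quantification of reads was not tested, so the sizes of both differences are uncertain. In ratios of mean FPKM the muscle isoform Cox7a1 fell 4.72-fold, from a low level, and Cox7a2 4.27-fold. Which of them fell more is not established, since their log2 ratio differed by −0.23 between the groups (exact permutation p = 0.71). Cox7a1 was at 1.09, 1.83, 2.83, 4.45 and 3.23 FPKM in wild type and 0.302, 0.179, 0.543, 0.869 and 0.953 FPKM in G799R, without overlap (log2 difference −1.18 ± 0.25 SE, limma adjusted p = 0.0018).

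Complex V was lower in 15 of 17 tested genes, with a median of −0.85. Atp5b encodes the catalytic beta subunit of the F1 head and had the highest level of all 98 genes. It was at 596, 760, 694, 916 and 771 FPKM in wild type and at 348, 366, 332, 310 and 340 FPKM in G799R. The G799R libraries spread over a narrower range, well below wild type. The mean fell 2.2-fold, from 748 ± 117 to 339 ± 20.6 FPKM (SD, n = 5 each; log2 difference −1.13 ± 0.11 SE, limma adjusted p = 1.1e-05). Atp5a1, the alpha subunit, was at 363, 470, 434, 531 and 482 FPKM against 233, 235, 225, 209 and 229 FPKM. Atp5c1, the gamma subunit of the central stalk, was at 169, 192, 193, 233 and 218 FPKM against 110, 103, 109, 111 and 112 FPKM. Groups did not overlap in either gene, and the log2 differences were −0.999 and −0.87 (limma adjusted p = 1.1e-05 and 9.9e-06). By position the median was −0.999 in the F1 head and stalk (4 of 5 lower), −0.69 in the peripheral stalk (4 of 4), −1.19 in the c ring (3 of 3) and −0.72 in the other membrane subunits (4 of 4).

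The genes of subunit c, whose promoters are printed above, did not fall by the same amount. Atp5g3 was at 157, 219, 207, 250 and 225 FPKM in wild type and at 87.0, 87.1, 83.6, 83.3 and 98.8 FPKM in G799R. Atp5g1 was at 75.1, 104, 107, 128 and 137 FPKM against 51.4, 47.2, 46.2, 42.2 and 47.2 FPKM. Atp5g2 was at 65.0, 70.5, 73.4, 78.6 and 74.1 FPKM against 53.6, 63.3, 52.2, 59.9 and 57.7 FPKM. In each gene the groups were apart, although the highest G799R value of Atp5g2 lay just under its lowest wild-type value. The log2 differences were −1.24, −1.19 and −0.33 (limma adjusted p = 6.5e-06, 3.4e-05 and 0.0024). As a share of the FPKM of these 3 genes, Atp5g2 made up 17.0% to 21.9% in wild type and 27.9% to 32.3% in G799R, a share that no scaling of a library can move. Atp5g1 and Atp5g2 were chosen after their values were seen, so the share carries no test.

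**Figure D2:**
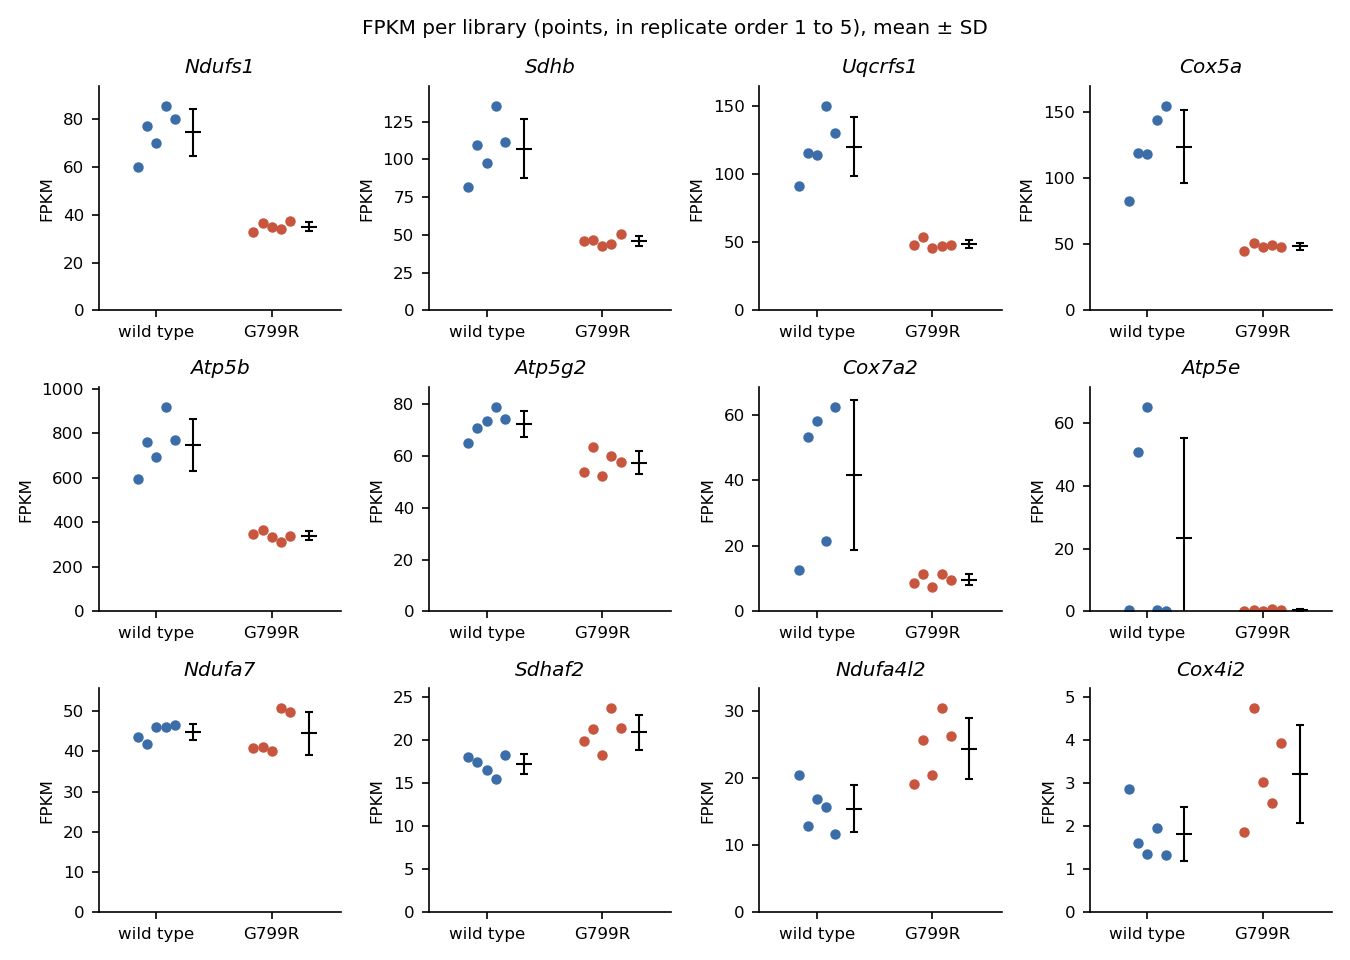
FPKM of 12 genes in each library (points, replicates 1 to 5 from left to right), with mean and SD per group. Ndufs1, Sdhb, Uqcrfs1, Cox5a and Atp5b show groups that are apart, Atp5g2 a small fall, Cox7a2 and Atp5e wild-type libraries far from each other, Ndufa7 overlapping groups, and Sdhaf2, Ndufa4l2 and Cox4i2 higher means in FPKM as deposited; scaled by glomerular markers, Sdhaf2 turned to −0.33.

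Subunits and assembly factors differed in how many were called lower. Of 78 tested subunits 74 were lower, 1 higher and 3 not called, with a median of −0.76. Of 14 assembly factors 4 were lower (Ndufaf4, Ndufaf5, Ndufaf7 and Cox7a2l), 2 higher and 8 not called, with a median of −0.20. The groups of subunits did not overlap in 68 of 78. Assembly factors were also expressed at a lower level, with a median of 6.96 FPKM against 58.2 FPKM for subunits. The pseudocount understates changes at low levels, but in ratios of mean FPKM, which have none, the medians were 57.5% of wild type for subunits and 84.5% for assembly factors. Ndufaf4, a complex I factor, was at 8.77, 11.1, 9.55, 13.4 and 10.97 FPKM in wild type and at 6.67, 7.33, 6.59, 6.09 and 6.79 FPKM in G799R, with no overlap. Its log2 difference was −0.60 ± 0.10 (SE; limma adjusted p = 5.0e-04). Ndufaf7, a methyltransferase, differed by −0.54 and Ndufaf5, which modifies a complex I subunit, by −0.30, both with overlapping groups, and the call of Ndufaf5 was lost in 7 of 10 fits without 1 library. Among 34 tested assembly factors outside these symbols 10 were lower, 1 higher and 23 not called (median −0.16). Over all tested genes 19.3% were called lower and 40.5% higher, with a median of 0.17. Ecsit and Nubpl of complex I (−0.90 and −0.59), Coa6 and Sco2 of complex IV (−0.70 and −0.67) and Tmem70 of complex V (−0.58) were among those lower. Surf1 of complex IV was higher by 0.33, and Atpaf1 and Atpaf2, which build the F1 head, were not called (0.13 and 0.08).

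The gap between subunits and assembly factors was present in FPKM as deposited. The 3 other scalings described here each multiply all genes of a library by the same factor. They therefore could hardly change this gap and give it no further support. By median of ratios the median was −0.94 for subunits and −0.36 for assembly factors. Scaled to equal glomerular markers, the median was −1.39 for subunits, −0.75 for assembly factors and −0.37 for all genes, and 89 members were lower and 0 higher, against 56.7% and 4.6% of all tested genes. With 22 genes of mitochondrial import and outer membrane as reference, the medians were −0.38, 0.14 and 0.51. There 55 members were lower and 7 higher, against 12.9% and 69.5% of all tested genes, and Atp5g2 turned to 0.06 (not called), 1 of 5 members called lower in FPKM as deposited whose sign changed. The 7 higher were Ndufa4l2, Cox4i2, Sdhaf2, Atp5s, Ndufaf3, Ndufaf8 and Ndufa7. By complex, the medians under this reference were −0.20 for I, −0.14 for II, −0.48 for III, −0.48 for IV and −0.45 for V, with 20, 4, 7, 12 and 12 genes lower.

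**Figure D3:**
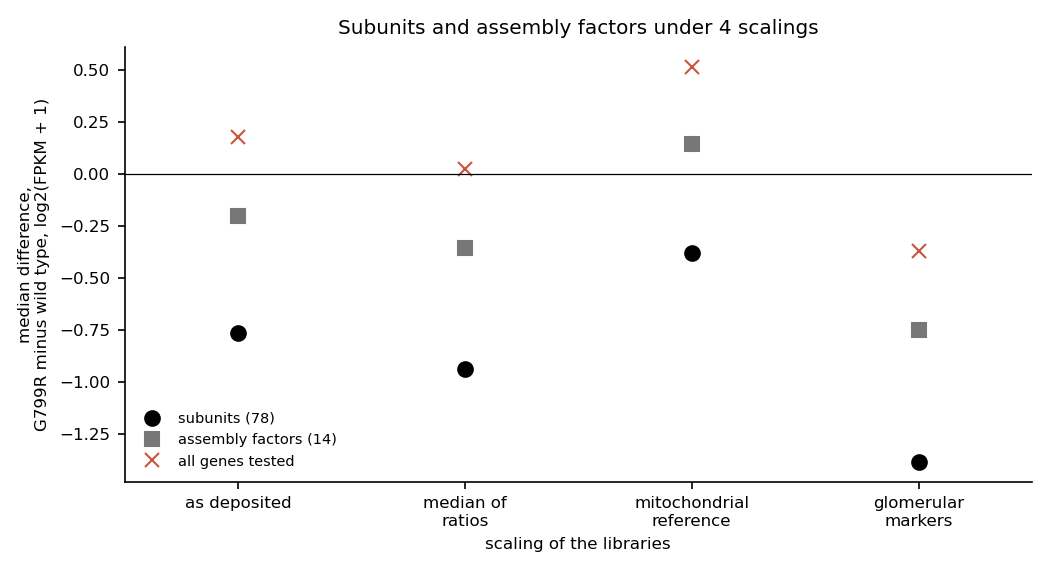
Median difference between G799R and wild type on log2(FPKM + 1) for the 78 subunits, the 14 assembly factors and all 13117 tested genes, with libraries as deposited and under 3 other scalings. The subunits lie lowest in each, from −1.39 to −0.38. The assembly factors lie between them and all genes and change sign to 0.14 under the mitochondrial reference. Each scaling multiplies all genes of a library by the same factor, so the gaps between the sets stay nearly fixed.

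The 4 genes called higher in FPKM as deposited were Ndufa4l2, Cox4i2, Sdhaf2 and Atp5s, and none of them was called higher after glomerular marker scaling. Ndufa4l2, a paralogue of Ndufa4 known to be induced by low oxygen, was at 20.4, 12.8, 16.9, 15.7 and 11.7 FPKM in wild type and at 19.1, 25.8, 20.5, 30.4 and 26.3 FPKM in G799R. Only G799R library 1 lay below the highest wild-type value, that of library 1. Its mean was 1.58-fold higher (24.4 ± 4.60 against 15.5 ± 3.47 FPKM, SD, n = 5 each), with a log2 difference of 0.63 ± 0.16 (SE; limma adjusted p = 0.0052), which was 0.46 under median-of-ratios and 0.03 under glomerular marker scaling. Exons of Ndufa4l2 overlap those of Shmt2 on the other strand, and strand use is not given, so the value of Ndufa4l2 is uncertain. Cox4i2, the isoform of Cox4i1 known from lung and vascular cells, was at 2.86, 1.63, 1.36, 1.95 and 1.34 FPKM against 1.88, 4.74, 3.03, 2.54 and 3.95 FPKM. The groups overlapped through wild-type libraries 1 and 4 and G799R libraries 1 and 4. Its log2 difference of 0.56 ± 0.20 (SE; limma adjusted p = 0.029) lost its call in 5 of 10 fits without 1 library and was 0.12 under glomerular marker scaling. Sdhaf2, which is needed to attach the flavin to Sdha, was at 18.0, 17.5, 16.6, 15.5 and 18.3 FPKM against 19.9, 21.3, 18.2, 23.7 and 21.4 FPKM. G799R library 3 fell within the wild-type range and the other 4 lay above it. The log2 difference was 0.27 ± 0.08 (SE; limma adjusted p = 0.011), close to the 0.17 of all genes, and became 0.10 under median-of-ratios scaling (not called) and −0.33 under glomerular marker scaling (called lower). Exons of Sdhaf2 overlap those of Cpsf7 on the other strand, so the value of Sdhaf2 is uncertain too. Atp5s, coupling factor B, counted here with the assembly factors, was at 5.47, 5.55, 7.96, 5.39 and 5.26 FPKM against 8.17, 5.74, 9.09, 8.60 and 8.21 FPKM, with 1 library of each group inside the other's range. Its log2 difference of 0.37 ± 0.13 (SE; limma adjusted p = 0.030) lost its call in 8 of 10 fits without 1 library and turned to −0.18 under glomerular marker scaling. Without wild-type library 2, wild-type library 5 or G799R library 5 only 2 members, Ndufa4l2 and Sdhaf2, were called higher.

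Ratios between isoforms within a library do not depend on how the library is scaled. Ndufa4l2 stood at 6.10% to 16.7% of the FPKM of Ndufa4 in wild type and at 25.7% to 42.6% in G799R, without overlap. The log2 ratio (pseudocount 0.1) went from −3.39 ± 0.54 to −1.59 ± 0.26 (SD, n = 5 each), a difference of 1.80 with an exact two-sided permutation p of 0.0079, the smallest possible (0.032 adjusted over 4 pairs). Ndufa4 itself was at 162 ± 27.8 FPKM in wild type and 73.0 ± 6.89 FPKM in G799R (SD, n = 5 each). The exon overlap of Ndufa4l2 with Shmt2 limits the ratio of Ndufa4l2 to Ndufa4 too. Cox4i2 stood at 0.413% to 1.26% of the FPKM of Cox4i1 in wild type and at 1.18% to 2.96% in G799R, where library 1 overlapped. Its log2 ratio rose by 1.65 (exact permutation p = 0.016, adjusted 0.032). Leaving out any 1 library other than library 1 of either group ended both calls (adjusted exact permutation p of 0.063), with differences of 1.64 to 1.85 for Ndufa4l2 and 1.51 to 1.71 for Cox4i2. With 1 library fewer, 0.063 is the smallest adjusted p a pair can reach unless another pair separates as fully. The groups of Ndufa4l2 stayed apart whichever library was left out, so the loss of its call does not show a weaker separation. The pairs Cox6b2 with Cox6b1, the testis and common forms, and Cox7a1 with Cox7a2, the muscle and common forms, had ratio differences of −0.05 and −0.23 (exact permutation p = 0.94 and 0.71, adjusted 0.94 for both) with overlapping groups. Cox7a1 stood at 3.44% to 20.8% of the FPKM of Cox7a2 in wild type. The 2 separate wild-type levels of Cox7a2 limit what this ratio can show. The remaining pairs were not tested, since Cox6a2 stayed at most at 0.630 FPKM and Cox8b was listed at 0. In the same G799R libraries 10 of 12 endothelial and 7 of 12 mesangial markers were higher, and nearly all tubule markers lower. The 5 mesangial markers not called included Acta2 (0.10), Myh11 (0.10) and Rgs5 (−0.48). The part of these markers in the ratios was not tested.

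**Figure D4:**
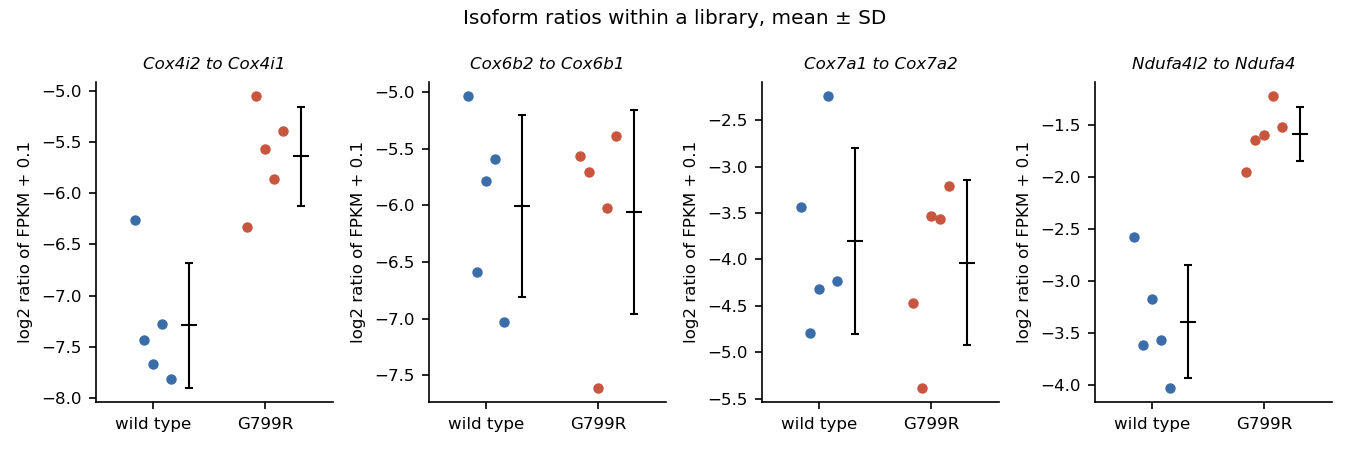
Log2 ratio of 2 isoforms in each library (FPKM + 0.1, points), with mean and SD per group, for the 4 tested pairs. The ratio of Ndufa4l2 to Ndufa4 separates the groups, that of Cox4i2 to Cox4i1 overlaps in 1 G799R library, and the other 2 pairs overlap widely.

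The 11 genes not called were Ndufaf1, Ndufaf2, Ndufaf3, Ndufaf6, Ndufaf8, Sdhaf1, Sdhaf3 and Sdhaf4 among assembly factors and Ndufa7, Cox6b2 and Atp5e among subunits. The assembly factors ranged from −0.40 (Ndufaf6) to 0.17 (Ndufaf3). Cox6b2 had a log2 difference of −0.63 ± 0.27 (SE; limma adjusted p = 0.067), at 1.18 to 3.99 FPKM in wild type and 0.257 to 2.10 FPKM in G799R. Atp5e, the epsilon subunit of the F1 stalk, was at 0.436, 50.9, 65.1, 0.389 and 0.244 FPKM in wild type and at 0.282, 0.334, 0.169, 0.649 and 0.593 FPKM in G799R. Only wild-type libraries 2 and 3 held more than 1 FPKM, and the other 3 fell within the G799R range. Its log2 difference of −2.13 ± 1.12 (SE; limma adjusted p = 0.12) rested on these 2 libraries and was −1.36 and −1.27 without library 2 or 3. Here too, whether the separate levels come from the quantification was not tested.

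Libraries of a group moved together across the complexes. The 98 genes took 2.01% to 2.88% of all FPKM in wild type and 1.303% to 1.461% in G799R. Within wild type, library 1 held the lowest value for 74 of the 93 tested genes and library 4 the highest for 53, and these were also the libraries with the lowest and highest tubule score of the group. Within G799R, libraries 3 and 1 were lowest for 33 and 30 genes and library 5 highest for 40, whereas the lowest tubule scores were those of libraries 4 and 5. The median deviation from the wild-type mean ran from −0.83 to −0.58 over G799R libraries. Leaving out wild-type library 1 moved the median difference from −0.71 to −0.79, with 79 genes lower.

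**Figure D5:**
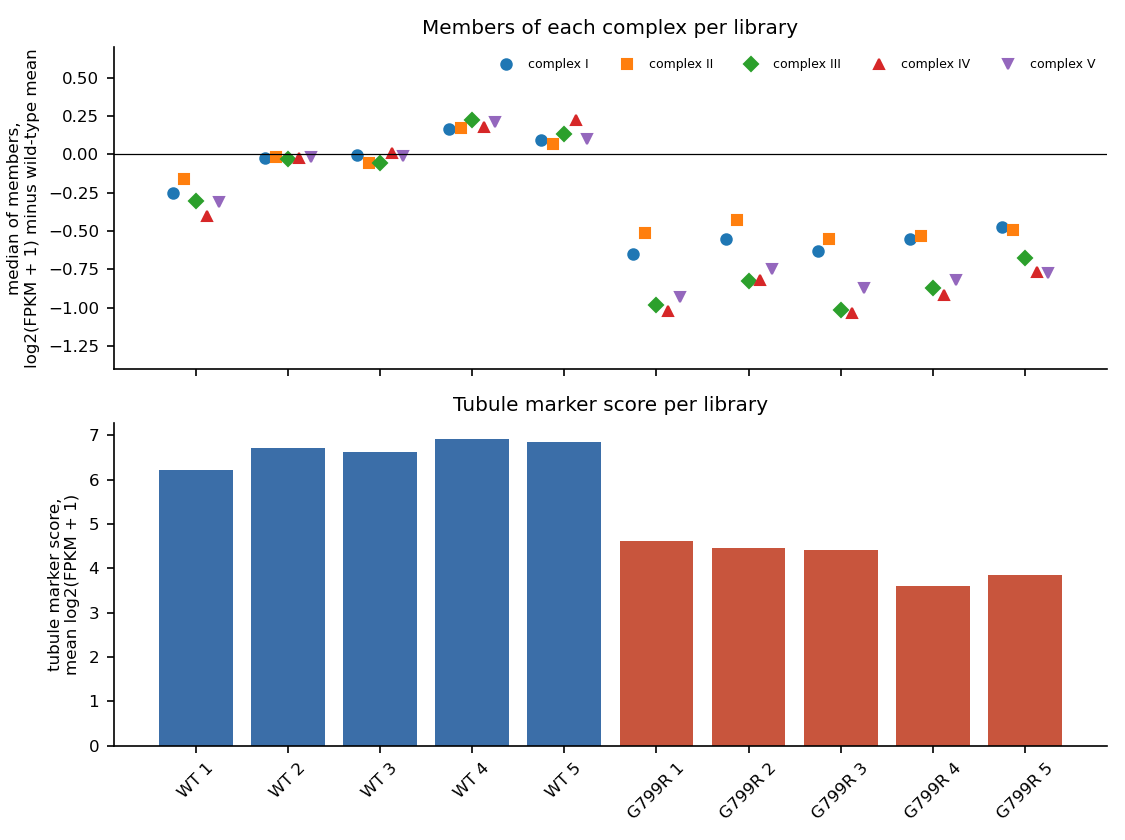
Top, median over the tested genes of each complex of log2(FPKM + 1) minus the wild-type mean, per library. Bottom, tubule marker score per library, in mean log2(FPKM + 1), with bars from 0. Complexes III, IV and V lie lowest in each G799R library, wild-type library 1 is the lowest of wild type in both panels, and the tubule score is 6.21 to 6.92 in wild type and 3.59 to 4.62 in G799R.

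The shares of the complexes in the summed FPKM of the 98 genes shifted little. Complex I made up 25.3% to 27.4% in wild type and 29.3% to 30.7% in G799R, and complex V 34.2% to 35.5% and 32.1% to 33.6%, both without overlap. Complex II (5.06% to 5.62% and 4.97% to 5.43%), complex III (9.70% to 10.2% and 9.19% to 9.75%) and complex IV (22.1% to 25.3% and 22.1% to 23.1%) overlapped.

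Partner genes outside these symbols were lower too. Of the 13 proteins that mitochondrial DNA encodes, the genes of 4 had rows here, and all 4 were lower (median −1.60), a larger difference than the median of any nuclear complex. The complex I genes mt-Nd3, mt-Nd4l and mt-Nd6 had log2 differences of −1.46, −1.45 and −1.73. The complex V gene mt-Atp8 had 4517 FPKM in wild-type library 1, while the other 4 of that group had 1252 to 1665 FPKM, so that the library lowest for most nuclear genes was the highest for this one. Of 8 nuclear genes that carry electrons to or between the complexes 6 were lower (median −0.84), against 19.3% of all tested genes. Cyc1, a core subunit of complex III that lacks the symbol of the others, went from 85.5 ± 12.7 to 40.3 ± 2.34 FPKM (SD, n = 5 each; −1.05), and Cycs, cytochrome c, from 62.1 ± 10.2 to 24.8 ± 2.39 FPKM (−1.28). The electron transfer flavoprotein genes Etfa, Etfb and Etfdh had differences of −1.24, −0.89 and −0.78. Dhodh and Gpd2, which feed electrons to ubiquinone from pyrimidine synthesis and from glycerol phosphate, were not called (0.01 and 0.04). The lower tubule score accompanied these values as well.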

How the data were processed

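Per the labels' protocols, total RNA came from a TRIzol extraction and a NEBNext Ultra kit turned enriched mRNA into libraries. The authors deposited 1 table of FPKM values for 22053 Ensembl identifiers. The tools listed, without role or order, are RSEM, HISAT2, StringTie 1.3.1, Bowtie2 2.2.8 and fastp 0.18.0, per the submitters' processing notes. The genome build is not given in the sources used here. Symbols were found for 21963 identifiers, and annotation came from GENCODE M21 (GRCm38). FPKM is relative, so a cell type that takes a larger share of RNA lowers the values of others.

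The 13117 genes whose mean reached 0.5 FPKM were tested on log2(FPKM + 1) with limma-trend (limma 3.58.1, R 4.3.3), two-sided, with Benjamini-Hochberg adjustment over all of them. Adding a pseudocount of 1 shrinks changes at low levels, and folds are ratios of mean FPKM. Isoform ratios used an exact permutation test (scipy 1.17.1), where 5 against 5 libraries allow no p below 0.0079. The fits were tested on simulated data. The members, lists and rules were chosen with earlier results of these data known. The rule for named genes took up to 3 core subunits per complex with the highest mean, the largest fall and rise among called members, every member called against the majority of its complex, the isoform pairs and the members not called. Others are said to be chosen after their values were seen. A gene that the rule names is not reported here.

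Reads shared with near-identical copies could move values: 7 members have a copy of at least 95% identity over at least 50% of the longest transcript, and 1 of these copies has a row (that of Atp5l). Exons of 32 members overlap a gene on the other strand and those of 6 a gene on the same strand, and strand use is not given in the sources used here. Alternatives were pseudocounts of 0.1 and 0.5, no filter, a filter of 2 FPKM, 4 other scalings, limma without trend or with robust variances, the replicate number as a block, a covariate for the tubule score, and omission of each library in turn.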

Additional observations from a re-analysis of the deposited data

Results flagged for a closer look

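In 194 groups of 5 libraries (the FPKM of each tested member in each group, and the isoform ratios), 13 single libraries stood apart from the other 4 by Dixon's test at the 95% level (gap over range above 0.71). Chance flags about 1 in 20 groups.

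Of these values 4 were high in G799R library 5: Ndufa6 at 44.4 FPKM (others 30.5 to 33.7), Ndufs8 at 45.2 FPKM (34.0 to 36.6), Cox7b at 45.3 FPKM (33.7 to 36.9) and Atp5g3 at 98.8 FPKM (83.3 to 87.1). In complex I, Ndufa6 was high at 67.3 FPKM in wild-type library 4, and Ndufs4 was low at 25.9 FPKM in wild-type library 1, where the others lay at 32.4 to 33.5 FPKM. Ndufc2 was low at 36.2 FPKM in G799R library 3, Ndufaf6 high at 4.17 FPKM in G799R library 4, and Ndufaf8 low at 12.3 FPKM in wild-type library 2. In complex V, Atp5k was low at 6.71 FPKM in G799R library 1 (others 14.6 to 16.9). Atp5s was high at 7.96 FPKM in wild-type library 3 and low at 5.74 FPKM in G799R library 2, the 2 libraries that make its groups overlap. The log2 ratio of Cox6b2 to Cox6b1 was low at −7.61 in G799R library 3. The wild-type values of Cox7a2 and Atp5e, which lie in 2 clusters rather than with 1 library apart, were not flagged by this test.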

How the results depend on the processing

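The count of 78 lower members was 76 to 83 under other pseudocounts, filters, limma settings, quantile normalisation, median-of-ratios scaling and leaving out any 1 library, 89 under glomerular marker scaling and 55 under the mitochondrial reference. With the tubule score as a covariate 0 members were lower and 0 higher, in all and in each complex, as were 0 of all genes (limma; 5 members and 745 of all genes at an unadjusted p under 0.05). This score does not overlap between the groups. The median SE over members went from 0.11 to 0.41, with a median difference of −0.49. The 4 higher members became 1 under median-of-ratios scaling, 0 under glomerular marker scaling, 7 under the mitochondrial reference and 2 to 3 without 1 library. Lower members of complex I became 20 under the mitochondrial reference and those of complex II 8 under glomerular marker scaling.

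Replicate numbers do not pair the libraries: deviations of same-numbered libraries correlated by −0.085 to 0.048. With the replicate block 78 members were lower (77 of them also lower without it) and 3 higher, Cox4i2 losing its call. The ratio differences of Cox4i2 (1.65) and Ndufa4l2 (1.80) both had an adjusted p of 0.25 by sign flips, where 5 pairs allow no p below 0.0625. Without 1 library they ran from 1.51 to 1.91 and from 1.64 to 2.001, and those of Cox6b2 and Cox7a1 from −0.31 to 0.34 and from −0.48 to 0.16. With a pseudocount of 1 these last became 0.33 and 0.59.

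The sign changed in 0 members under median-of-ratios scaling, 3 under glomerular marker scaling, 11 under the mitochondrial reference and 12 with the tubule covariate. Glomerular marker scaling gave −0.33 for Sdhaf2, −0.18 for Atp5s and −0.39 for Ndufaf3. The mitochondrial reference gave 0.17 for Ndufaf1, 0.30 for Ndufaf8, 0.38 for Ndufa7, 0.12 for Sdhaf1, 0.23 for Sdhaf3 and 0.30 for Sdhaf4, and, of members called lower, 0.035 for Ndufaf5, 0.13 for Ndufb7, 0.11 for Ndufs5, 0.12 for Atp5j and 0.064 for Atp5g2. The tubule covariate gave −0.86 for Ndufa4l2, −0.25 for Sdhaf2, −0.11 for Cox4i2, −0.12 for Ndufaf3, 0.63 for Ndufaf2, 0.044 for Sdhaf1, 0.10 for Sdhaf3 and 0.0025 for Sdhaf4, and, of members called lower, 0.083 for Cox7a2l, 0.074 for Ndufaf4, 0.040 for Atp5j2 and 0.011 for Ndufa12. Quantile normalisation gave 0.0039 for Sdhaf3. Without 1 library Ndufa7 ran from −0.064 to 0.019, Sdhaf3 from −0.0505 to 0.022 and Sdhaf4 from −0.14 to 0.013. The cause was not tested. Unknown depth limits what can be said of members under about 1 FPKM.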

Other observations

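Other groups of mitochondrial genes were lower to differing degrees. All 17 genes of the citric acid cycle and pyruvate dehydrogenase were lower, with a median log2 difference of −0.82. The largest difference was that of Suclg2, a subunit of succinyl-CoA ligase (88.0 ± 15.5 against 33.6 ± 3.67 FPKM, SD, n = 5 each; −1.35). Cs, citrate synthase, differed least (78.9 ± 7.31 against 56.6 ± 4.08 FPKM, SD, n = 5 each; −0.47). Of 22 genes of protein import, the outer membrane and mitochondrial chaperones 15 were lower and 1 higher, with a median of −0.37. Beside these counts, 19.3% of all tested genes were lower and 40.5% higher, with a median of 0.17. The chaperone genes Hspd1 and Hspa9 had differences of −1.19 and −0.94. The 3 genes of the outer membrane channel went different ways in FPKM as deposited: Vdac1 was lower (−0.62), Vdac2 higher (0.21) and Vdac3 not called (0.13). These values accompanied the lower tubule score of the G799R libraries, whose part in them was not tested.

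Of 18 genes of factors that control mitochondrial content and DNA 8 were lower and 3 higher, against 19.3% and 40.5% of all tested genes. The coactivator gene Ppargc1a was at 8.61 ± 1.97 FPKM in wild type and 2.78 ± 1.44 FPKM in G799R (SD, n = 5 each; log2 difference −1.42, limma adjusted p = 9.0e-04). The receptor genes Esrrg, Esrrb and Esrra, whose products bind AAGGTCA, had differences of −1.396, −1.21 and −0.77. Nrf1, Yy1 and Polg, the mitochondrial DNA polymerase, were higher by 0.29, 0.30 and 0.33 in FPKM as deposited, and Gabpa was not called (0.20). The median of all tested genes was 0.17. Tfam, which packages mitochondrial DNA, was not called (−0.15). The tubule score was 6.21 to 6.92 in wild type and 3.59 to 4.62 in the same G799R libraries, and its part in these values was not tested.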
